A study of Mus musculus with 8 samples.

Results

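The genes described here code for collagens and other proteins of the extracellular matrix. They were chosen by symbol: all numbered collagen chains, laminin chains, tissue inhibitors of metalloproteinases (Timp) and fibulins with an Fbln symbol. Dcn, Lum, Bgn, Sparc, Fn1, Fbn1, Postn and Mgp were taken by name. The choice used no measured value and gave 71 of the 23366 genes in the deposited tables. Of these, 63 had at least 1 count and 8 were at 0 in all libraries (Col2a1, Col4a6, Col9a1, Col9a3, Col17a1, Col22a1, Fbln7 and Lamc3). RNA-seq was made from primary beta cells sorted from the pancreas of NOD mice aged 8 to 10 weeks, a strain prone to autoimmune diabetes. Cells had been sorted into 2 populations called top and bottom, the labels do not say by what, and 4 libraries were made of each. Libraries 1 and 2 of each population were in batch 1 and libraries 3 and 4 in batch 2, and no genotype change or treatment is named for either population. Each library was made from about 1000 cells with a kit for very small amounts of RNA.

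Collagens are secreted proteins whose chains wind into a helix. Fibrillar collagens such as types I and III form the fibres of connective tissue, collagen IV forms the sheet of basement membranes together with laminins, and collagen VI forms beaded filaments between them. Small proteoglycans bind the fibres, glycoproteins such as fibronectin link the matrix to cells, and the Timp proteins inhibit the proteases that degrade it. In the pancreas these genes are known chiefly from fibroblasts, stellate cells, pericytes and endothelial cells, and mouse beta cells are known to rely on vessels for much of their basement membrane.

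Promoter sequences are shown for Col3a1, which passed the test between populations, and for Postn and Col1a2, which had the next smallest p-values among the tested matrix genes. Each run is the 250 bases before the annotated start, 5′ to 3′ on the gene's strand, from RefSeq on GRCm38.p6, which is not the build of the deposited tables. Capitals mark matches, on either strand, to TATAAA (the TATA box core), CCAAT or GGGCGG (the GC box). Col3a1 lies at chr1:45311288-45311537, Postn at chr3:54360857-54361106 and Col1a2 at chr6:4505368-4505617, all on the plus strand. RefSeq gives a pair of starts for Postn, and the downstream one is shown. The window of the upstream Postn start held 0 matches to these motifs. The 25 bases after either Postn start were not found in a GENCODE transcript of the gene, while those of Col3a1 and Col1a2 were. Dcn, which had the smallest p-value, had no promoter entry and is not shown.
Col3a1: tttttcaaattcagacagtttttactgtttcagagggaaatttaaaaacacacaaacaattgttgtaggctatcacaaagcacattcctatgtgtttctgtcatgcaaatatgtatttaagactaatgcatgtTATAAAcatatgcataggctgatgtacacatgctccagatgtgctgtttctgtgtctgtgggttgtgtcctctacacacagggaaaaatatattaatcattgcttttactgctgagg
Postn: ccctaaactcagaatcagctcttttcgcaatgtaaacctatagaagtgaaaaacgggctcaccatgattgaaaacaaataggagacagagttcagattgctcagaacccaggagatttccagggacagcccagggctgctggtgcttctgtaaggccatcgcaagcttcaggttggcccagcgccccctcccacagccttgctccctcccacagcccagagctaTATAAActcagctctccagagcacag
Col1a2: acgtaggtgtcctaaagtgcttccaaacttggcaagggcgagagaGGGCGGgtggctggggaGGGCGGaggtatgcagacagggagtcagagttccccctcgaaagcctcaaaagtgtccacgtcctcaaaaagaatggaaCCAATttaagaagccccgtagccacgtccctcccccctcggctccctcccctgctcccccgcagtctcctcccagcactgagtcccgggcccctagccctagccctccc
TATAAA stood 26 to 21 bases before the start in Postn and 117 to 112 bases before it in Col3a1. Col1a2 held GGGCGG at 205 to 200 and at 188 to 183 bases and CCAAT at 109 to 105 bases before the start. Of 32851 RefSeq mouse promoter windows of the same length, 12.4% held TATAAA, 33.9% CCAAT and 32.7% GGGCGG. None of these motifs was found in all 3 windows, and a match is a description of letters, not a binding site.

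Matrix transcripts were a small part of every library, and most were more abundant in bottom than in top. Levels are given as CPM, read counts scaled to a common library size. The 71 genes together stood at 165, 131, 98.1 and 105 CPM in top 1 to 4 and at 107, 464, 946 and 2431 CPM in bottom 1 to 4. Bottom 1 lay within the range of the top libraries, and the other 3 bottom libraries lay above all of them. The mean was 125 ± 30.5 CPM in top and 987 ± 1022 CPM in bottom (SD, n = 4 each), a difference of 862 CPM that became 367 CPM without bottom 4, which held 61.6% of the bottom sum. In batch 1 the means were 148 CPM in top and 286 in bottom, and in batch 2 they were 102 and 1689. In bulk RNA, fewer cells of a type and less RNA per cell cannot be told apart, here and in every comparison below. The labels do not tie libraries to separate animals, and the p-values therefore reflect variation among libraries that may in part be technical.

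**Figure D1:**
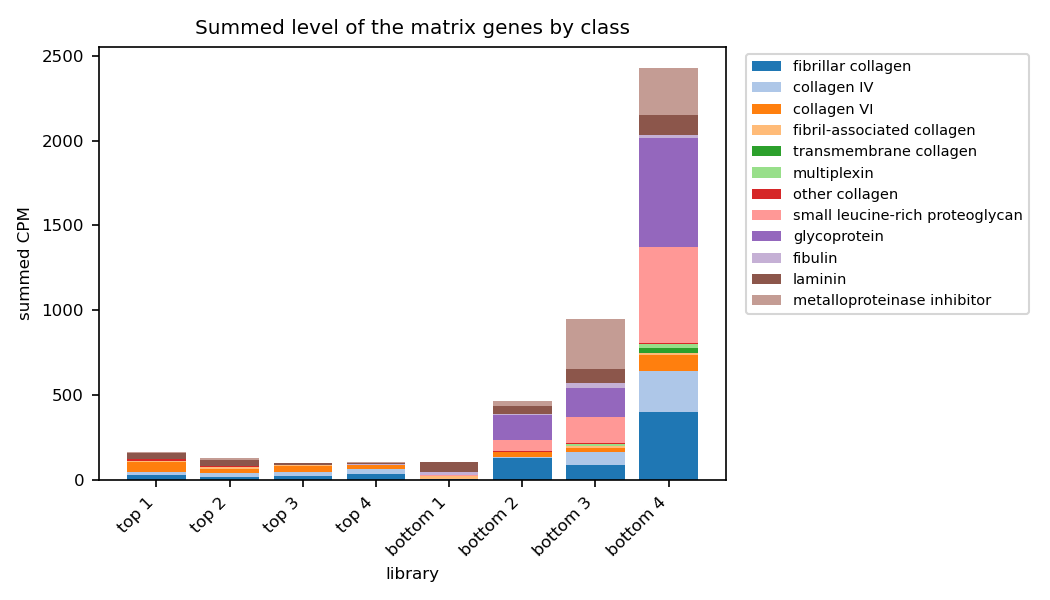
Summed level of the matrix genes in each library, in CPM on a linear axis from 0, with bar segments for 12 classes of matrix protein. The 4 top libraries and bottom 1 lie between 98.1 and 165 CPM, and bottom 2, 3 and 4 reach 464, 946 and 2431 CPM.

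The libraries held between 6657639 and 11262368 counts in all. Ins1 and Ins2 together took 26.6% to 40.1% of the counts in top and 2.75% to 7.16% in bottom. Of 10 beta cell markers, 9 had counts and Mafa was at 0 in all libraries. The summed delta cell list (Sst and 4 others) stood at 2655 to 5305 CPM in top and at 33437 to 57805 CPM in bottom, and the PP cell pair Ppy and Pyy at 1196 to 2356 and at 11342 to 91991 CPM. The list of 5 alpha cell markers, Gcg among them, summed to 65052 to 138024 CPM in top and to 28937 to 141810 CPM in bottom. These alpha cell ranges overlapped. Libraries of both populations, labelled beta cells, thus carried other endocrine hormone transcripts at high levels, with the delta and PP lists higher in bottom. The part of this in the matrix results was not tested.

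Of the 63 genes with a count, 51 had a higher mean CPM in bottom and 12 in top. That is 81.0% of them, against a background of 56.9% of the 17392 genes with a count. In bottom, 20 genes had counts while top had none, and 5 had counts in top only. Bottom 4 was the highest library for 32 of the 63 genes, and bottom 1 and bottom 3 for 8 each. Shares over all genes were not computed for detection in 1 population alone or for the highest library. The number of matrix genes with a count was 28, 26, 15 and 20 in top 1 to 4 and 28, 32, 45 and 47 in bottom 1 to 4. Over all genes, 14173, 13845, 12853 and 12971 had a count in top 1 to 4. In bottom 1 to 4 these were 13690, 13559, 14005 and 14381. In 7 genes every bottom library lay above every top library (Bgn, Col1a1, Col3a1, Col6a1, Dcn, Fbn1 and Postn), which 2.68% of all genes with a count did. No matrix gene had every bottom library below every top library, against 2.94% of all genes with a count.

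The test was edgeR's quasi-likelihood test of bottom against top with batch as a covariate, adjusted by the Benjamini-Hochberg method over 11721 genes and called at an adjusted p under 0.05. Only 14 matrix genes passed its filter on low counts, and they held 47.9% of the members' 44814 counts. The edgeR test called 2 of them, Dcn and Col3a1, higher in bottom and 0 lower, where 0.282% of all genes tested were called higher and 0.162% lower. At an unadjusted p under 0.05 there were 4, all higher in bottom (Dcn, Col3a1, Postn and Col1a2), as 5.62% of all genes tested were. DESeq2 called Dcn, Col3a1 and Postn higher, where it called 3.14% of all genes higher and 1.87% lower. Limma-trend called Dcn and Postn higher, where it called 0.665% higher and 0.503% lower. A gene present in bottom alone could pass the filter only with enough counts in all 4 bottom libraries, and bottom 1 held few or no counts of most of the genes found in bottom alone. In all, 57 members were not tested.

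Dropping that filter or bottom 1 let more matrix genes be tested. Without the filter, 63 members were tested and the edgeR test called 9 higher and 0 lower (Bgn, Col3a1, Col6a1, Dcn, Fn1, Lum, Postn, Sparc and Timp3), where 0.782% of 17392 genes were called higher and 0.391% lower. Without bottom 1, 24 members were tested and 7 were called higher (Bgn, Col3a1, Dcn, Fn1, Lum, Sparc and Timp3), where 0.294% of 12253 genes were. All 7 were among the 9. Nearly absent from top, these 7 could pass the filter of that fit only through the bottom libraries kept, where they were high. Their direction was thus fixed by the filter, and these calls do not test it. With bottom 3 left out the edgeR test called 1 member, Col3a1, where 0.107% of all genes were called higher. With bottom 2, bottom 4 or any of the 4 top libraries left out it called 0.

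**Figure D2:**
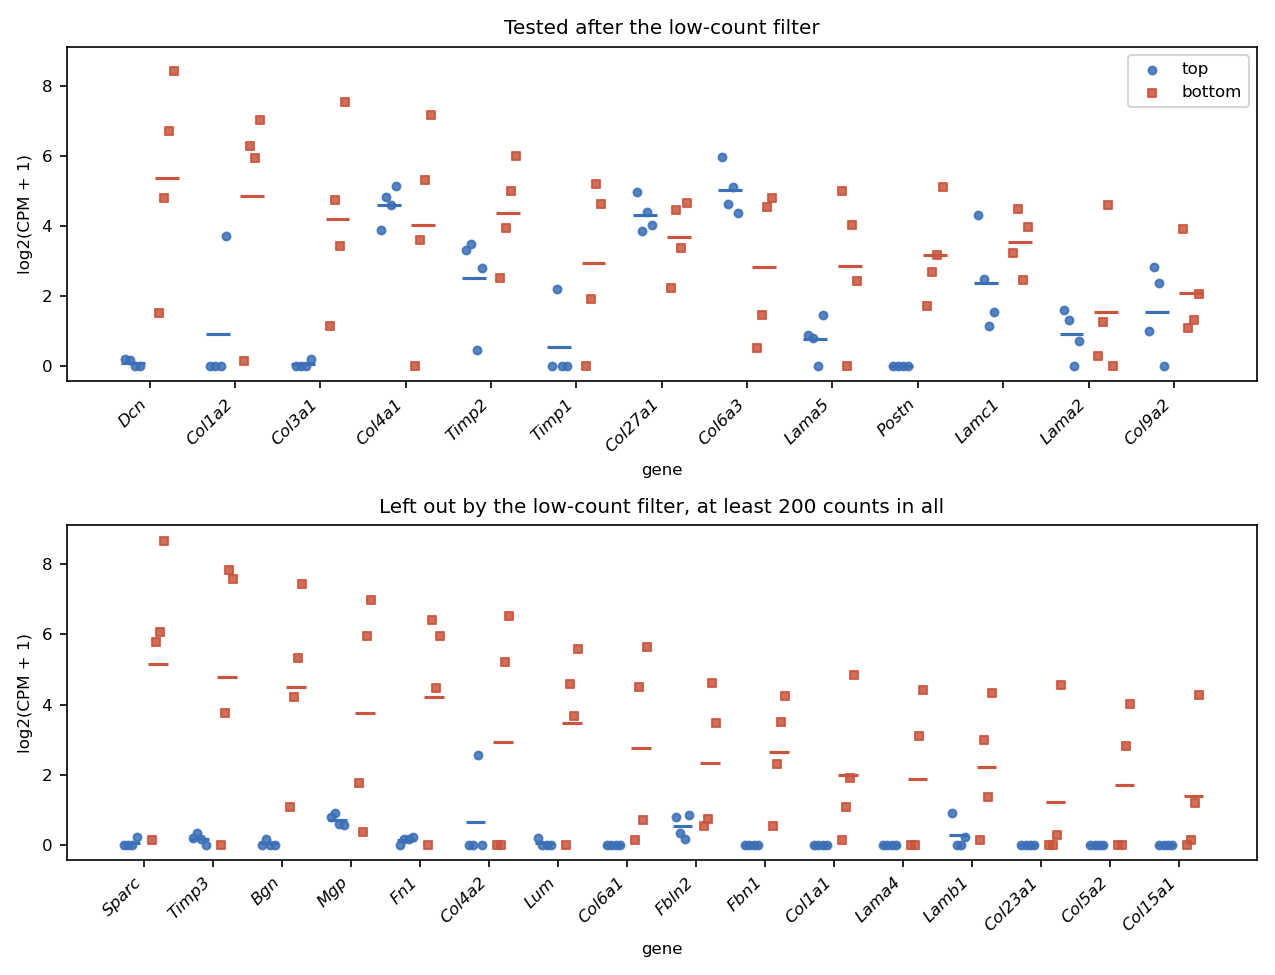
Level of 29 matrix genes in each library as log2(CPM + 1), circles for top and squares for bottom, horizontal bars for the mean of 4 libraries on this scale. The upper panel holds 13 of the tested genes and the lower panel the 16 genes that the low-count filter left out although they had at least 200 counts. Dcn, Col3a1 and Postn, nearly absent from top, could enter the upper panel only with enough counts in all 4 bottom libraries. Their lack of overlap between populations thus followed from the filter. Col27a1 and Col4a1 overlap.

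The fibrillar collagens summed to 13.7 to 31.4 CPM in top and to 5.35, 126, 87.9 and 402 CPM in bottom 1 to 4. Col3a1, the single chain of collagen III, was at 0 CPM in top 1 to 3 and at 0.159 CPM in top 4. In bottom 1 to 4 it was at 1.20, 25.9, 9.69 and 187 CPM. The populations did not overlap, as the filter required of a gene so low in top. Bottom 4 stood far above the other bottom libraries. Col3a1 rose in bottom with a log2 fold change of 10.10 (standard error 1.70, edgeR adjusted p = 0.0462). Over all libraries it had 1 count in top and 2397 in bottom. Scaled by the summed library sizes, the ratio was 1750, with an exact binomial 95% interval of 314 to 69142. The ratios of bottom to top here and below come from pooled counts and differ from ratios of mean CPM. Without bottom 4 the bottom counts were 380 and the Col3a1 ratio was 379 (67.7 to 15026). This interval and those below cover counting error only, and the fitted fold of a gene with so few counts in top depends on the prior count of the fit. The edgeR call was kept without bottom 1 and without bottom 3 (adjusted p = 0.0173 and 0.0405) and lost when any other library was left out, up to an adjusted p of 0.215.

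Collagen I combines Col1a1 and Col1a2 chains, with more of the former. Col1a2 was at 0 CPM in top 1 to 3 and at 12.2 CPM in top 4, and at 0.109, 77.7, 59.9 and 130 CPM in bottom 1 to 4. Here the populations overlapped, since top 4 exceeded bottom 1. Col1a2 had a log2 fold change of 5.81 (standard error 2.09, edgeR adjusted p = 0.352) and passed no test at the threshold. Col1a1 had no count in top and stood at 0.109, 1.12, 2.74 and 27.7 CPM in bottom 1 to 4, at least 82.2-fold higher in bottom against a floor of 3 counts over the top libraries. Bottom 4 decided that bound for Col1a1, which was 12.98-fold without it. The gene was not tested in the filtered fit, and without the filter its edgeR adjusted p was 0.0937.

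The other fibrillar chains were low or showed no call. Col27a1, a fibrillar collagen known from cartilage, was at 30.5, 13.4, 20.2 and 15.4 CPM in top and at 3.71, 20.8, 9.38 and 24.5 CPM in bottom (log2 fold change -0.45, standard error 0.72, edgeR adjusted p = 0.903). The Col27a1 ranges overlapped, and it was the only fibrillar collagen with counts in all 4 top libraries. Col5a2, a chain of collagen V that joins collagen I fibres, had counts in bottom 3 and bottom 4 only, at 6.11 and 15.1 CPM. Col5a1 reached 13.4 CPM in bottom 4 and at most 0.467 CPM elsewhere. Col5a3 was seen in bottom 4 alone (3.52 CPM) and Col24a1 in top 4 alone (3.65 CPM). Col11a1 and Col11a2 had at most 3 counts in either population.

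In collagen IV, Col4a1 was present in both populations. It stood at 13.8, 27.4, 23.1 and 34.1 CPM in top 1 to 4 and at 0, 11.1, 39.2 and 144 CPM in bottom 1 to 4. The top values lay within the wider range of the bottom values. The Col4a1 log2 fold change was -0.08 (standard error 1.33, edgeR adjusted p = 0.989), and its sign turned when bottom 1, bottom 2, bottom 3 or top 2 was left out. Col4a2, its partner chain, was at 4.95 CPM in top 3, 36.3 in bottom 3 and 90.5 in bottom 4, and at 0 in the other 5 libraries. Col4a5 was at 0.159 CPM in top 4, 1.90 in bottom 3 and 5.37 in bottom 4, while Col4a3 and Col4a4 had 2 and 4 counts in all.

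Collagen VI showed different library patterns for its chains. Col6a3 was at 62.1, 23.6, 33.5 and 19.5 CPM in top 1 to 4 and at 0.437, 1.78, 22.5 and 26.7 CPM in bottom 1 to 4. All top libraries exceeded bottom 1 and 2, and bottom 3 and 4 lay among them. The Col6a3 log2 fold change was -2.60 (standard error 1.33, edgeR adjusted p = 0.563). Its means were 42.9 CPM in top and 1.11 in bottom in batch 1, and 26.5 and 24.6 CPM in batch 2. Col6a1 had no count in top and 0.109, 21.6, 0.632 and 49.4 CPM in bottom, at least 188-fold higher in bottom, or 79.2-fold without bottom 4. Col6a2 likewise had no count in top, reached 17.0 CPM in bottom 4 and was at 0, 0.467 and 0.948 CPM in bottom 1 to 3. Its bound of 47.9-fold rested on bottom 4 and was 4.66-fold without it. Without the filter the edgeR adjusted p was 0.0373 for Col6a1, the 1 alternative that tested it, and 0.223 for Col6a2.

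No matrix gene was called by edgeR in a test of whether the difference between populations itself differed between batches. The smallest adjusted p among the 14 was 0.499, and 2 of them had an unadjusted p under 0.05. Among all genes tested this interaction test called 0, with 885, or 7.55%, at an unadjusted p under 0.05. Limma-trend called 0 members and 0 genes in all. DESeq2 called 1 member, Col6a3 (adjusted p = 0.0102), and 1.6% of all genes.

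Col9a2, a chain of the fibril-associated collagen IX, was at 1.01, 6.15, 4.20 and 0 CPM in top and at 14.1, 1.12, 1.47 and 3.15 CPM in bottom (log2 fold change 0.61, standard error 1.35, edgeR adjusted p = 0.930). Bottom 1 was its highest library. Col15a1 and Col18a1, the multiplexins of vascular and epithelial basement membranes, had no count in top. Col15a1 was at 0.0935, 1.26 and 18.3 CPM in bottom 2 to 4 and Col18a1 at 0.280, 7.06 and 10.3 CPM, at least 51.1-fold and 44.0-fold higher in bottom. Without bottom 4 these bounds were 4.33-fold for Col15a1 and 23.3-fold for Col18a1. Col23a1, a transmembrane collagen, had 22.7 CPM in bottom 4 and 0.211 CPM in bottom 3. Col13a1, another, had 5.37 and 0.316 CPM in the same libraries. Col14a1 reached 3.05 and 3.15 CPM in bottom 3 and 4. Col28a1 was found in top 1 alone at 4.75 CPM, and Col8a1 ranged from 0 to 6.33 CPM in top and from 0 to 8.53 CPM in bottom.

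The small leucine-rich proteoglycans decorin (Dcn), biglycan (Bgn) and lumican (Lum) bind collagen fibres and set their spacing. Their summed level was at most 0.288 CPM in any top library and was 2.95, 67.4, 155 and 566 CPM in bottom 1 to 4. Dcn was at 0.144, 0.126, 0 and 0 CPM in top and at 1.86, 26.6, 104 and 346 CPM in bottom. All 4 bottom libraries lay above all top libraries, over a wide range, as the filter required of a gene so low in top. Dcn rose in bottom with a log2 fold change of 9.85 (standard error 1.52, edgeR adjusted p = 0.0356), with 2 counts in top and 5028 in bottom, a ratio of 1835 (508 to 15158), or 645 (178 to 5332) without bottom 4. With 1 library left out, its edgeR adjusted p was 0.0048 without bottom 1 and between 0.0919 and 0.141 without any other library.

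Bgn was at 0.126 CPM in top 2, 0 in the other top libraries, and 1.09, 17.6, 39.0 and 173 CPM in bottom. Its populations did not overlap either. The Bgn ratio was 1774 (318 to 70094) from 1 count in top and 2430 in bottom, and 567 (101 to 22440) without bottom 4. Lum was at 0.144 CPM in top 1 and 0 in the other top libraries, and at 0, 23.2, 11.7 and 47.2 CPM in bottom, a ratio of 634 (113 to 25056), or 358 (63.9 to 14197) without bottom 4. Bgn and Lum were not tested in the filtered fit. Bgn was called in 2 of the 8 alternatives that tested it (edgeR, adjusted p from 0.00117 to 0.357) and Lum in 2 of 7 (0.0235 to 0.391).

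The glycoproteins summed to at most 1.00 CPM in any top library and to 5.24, 148, 167 and 648 CPM in bottom 1 to 4. Sparc, which binds collagen and calcium, was at 0.159 CPM in top 4 and 0 in the other top libraries. In bottom 1 to 4 it was at 0.109, 53.7, 65.9 and 408 CPM. Bottom 1 lay below top 4, and the other 3 bottom libraries lay far above. The Sparc ratio was 4093 (734 to 161698) from 1 count in top and 5607 in bottom, and without bottom 4 it was 1200 (215 to 47444). It was called in 2 of 7 alternatives (edgeR, adjusted p from 0.000745 to 0.237).

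Fibronectin (Fn1), which links integrins to the matrix, was at 0 to 0.159 CPM in top and at 0, 84.4, 21.4 and 61.0 CPM in bottom, a ratio of 429 (147 to 2083). Fn1 had its highest level in bottom 2 and was called in 2 of 7 alternatives (edgeR, adjusted p from 0.00492 to 0.320). Postn, periostin, a collagen-binding matricellular protein, had no count in top and 2.29, 5.51, 8.11 and 33.7 CPM in bottom. All bottom libraries held Postn, as the filter required of a gene absent from top. Postn was at least 127-fold higher in bottom, or 52.3-fold without bottom 4. Its log2 fold change was 9.60 (standard error 1.63, edgeR adjusted p = 0.0887), past the threshold in 3 of 16 alternatives (2.43e-06 to 0.755), by edgeR without the filter, by DESeq2 and by limma-trend. Mgp, which inhibits calcification, was at 0.476 to 0.879 CPM in top and at 2.40, 0.280, 61.3 and 127 CPM in bottom. Its values in bottom 2 lay below all top libraries, and it was called in 0 of 7 alternatives (edgeR, adjusted p from 0.0530 to 0.678). Fbn1, fibrillin of elastic microfibrils, had no count in top and 0.437, 3.93, 10.3 and 18.1 CPM in bottom, at least 82.5-fold higher, or 47.9-fold without bottom 4.

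Fibulins bind elastic fibres and basement membranes, and the 3 detected ones with an Fbln symbol differed in their libraries. Fbln1 was highest in bottom 1, at 13.8 CPM, then 4.49 in bottom 2, 0.105 in bottom 3 and 0 in bottom 4, and at most 0.432 CPM in top. Fbln2 was instead highest in bottom 3, at 0.437, 0.654, 23.5 and 10.1 CPM in bottom and 0.124 to 0.794 CPM in top. Fbln5 was at 1.31, 0, 9.48 and 4.08 CPM in bottom and at 0.719 CPM in top 1 alone. None of the 3 was tested in the filtered fit, and edgeR called none of them without the filter.

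Laminins are trimers of an alpha, a beta and a gamma chain that bind cells to the basement membrane. The class summed to 8.57 to 36.8 CPM in top and to 56.6, 45.7, 79.2 and 118 CPM in bottom, so the class sums did not overlap. All 10 detected laminin genes had a higher mean in bottom, and edgeR, DESeq2 and limma-trend each called 0 of the 4 tested, none of which had an unadjusted p under 0.05 by edgeR. Lama5, the alpha chain of many mature basement membranes, was at 0.863, 0.753, 0 and 1.75 CPM in top and at 30.8, 0, 15.4 and 4.35 CPM in bottom. Its highest value came from bottom 1, where it made up 28.7% of matrix counts, and bottom 2 had none (log2 fold change 3.86, standard error 1.75, edgeR adjusted p = 0.494). Lama2, the alpha chain of muscle and nerve, was at 23.3 CPM in bottom 3 and at most 2.01 CPM in the other libraries (log2 fold change 1.94, standard error 2.69, edgeR adjusted p = 0.889). Lama4, the alpha chain of vessels, had counts in bottom 3 and 4 only, at 7.58 and 20.5 CPM, at least 71.3-fold higher, or 24.0-fold without bottom 4.

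The gamma chain Lamc1, found in most laminins, was present in both populations. It was at 18.8, 4.65, 1.24 and 1.91 CPM in top and at 8.30, 21.2, 4.53 and 14.7 CPM in bottom (log2 fold change 1.45, standard error 0.96, edgeR adjusted p = 0.702). Its ranges overlapped, with top 1 the second highest of the 8 libraries. Of the beta chains, Lamb1 was at most 0.863 CPM in top and at 0.109, 6.92, 1.58 and 19.3 CPM in bottom. Lamb2 was found in bottom 3 and 4 (0.632 and 8.89 CPM) and Lamb3 in bottom 1 and 3 (3.71 and 0.527 CPM).

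The protease inhibitors were the largest class in bottom 3, where they made up 31.1% of matrix CPM. Timp3, which stays bound to the matrix after secretion, was at 0 to 0.251 CPM in top and at 0, 12.5, 228 and 191 CPM in bottom. Bottom 3 and 4 were high and bottom 1 had none. The Timp3 ratio was 795 (310 to 2920) from 4 counts in top and 4357 in bottom, and it was called in 3 of 7 alternatives (edgeR, adjusted p from 0.00651 to 0.276). The gene overlaps exons of Syn3 on the opposite strand in the GRCm38 annotation. Syn3 stood at 0.495 to 2.01 CPM in top and at 0.109, 0, 21.4 and 4.82 CPM in bottom, highest in bottom 3 as Timp3 was.

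Timp1 and Timp2 are secreted inhibitors. Timp1 was at 3.64 CPM in top 2 and 0 in the other top libraries, and at 0, 2.80, 35.7 and 23.8 CPM in bottom (log2 fold change 3.79, standard error 3.52, edgeR adjusted p = 0.810). Timp2 was at 8.92, 10.3, 0.371 and 6.03 CPM in top and at 4.70, 14.4, 30.8 and 62.7 CPM in bottom (log2 fold change 1.91, standard error 1.24, edgeR adjusted p = 0.688). Both overlapped between populations, with bottom 3 and 4 the highest libraries. Timp4 had 3 counts in top and 3.43 CPM in bottom 4 alone.

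**Figure D3:**
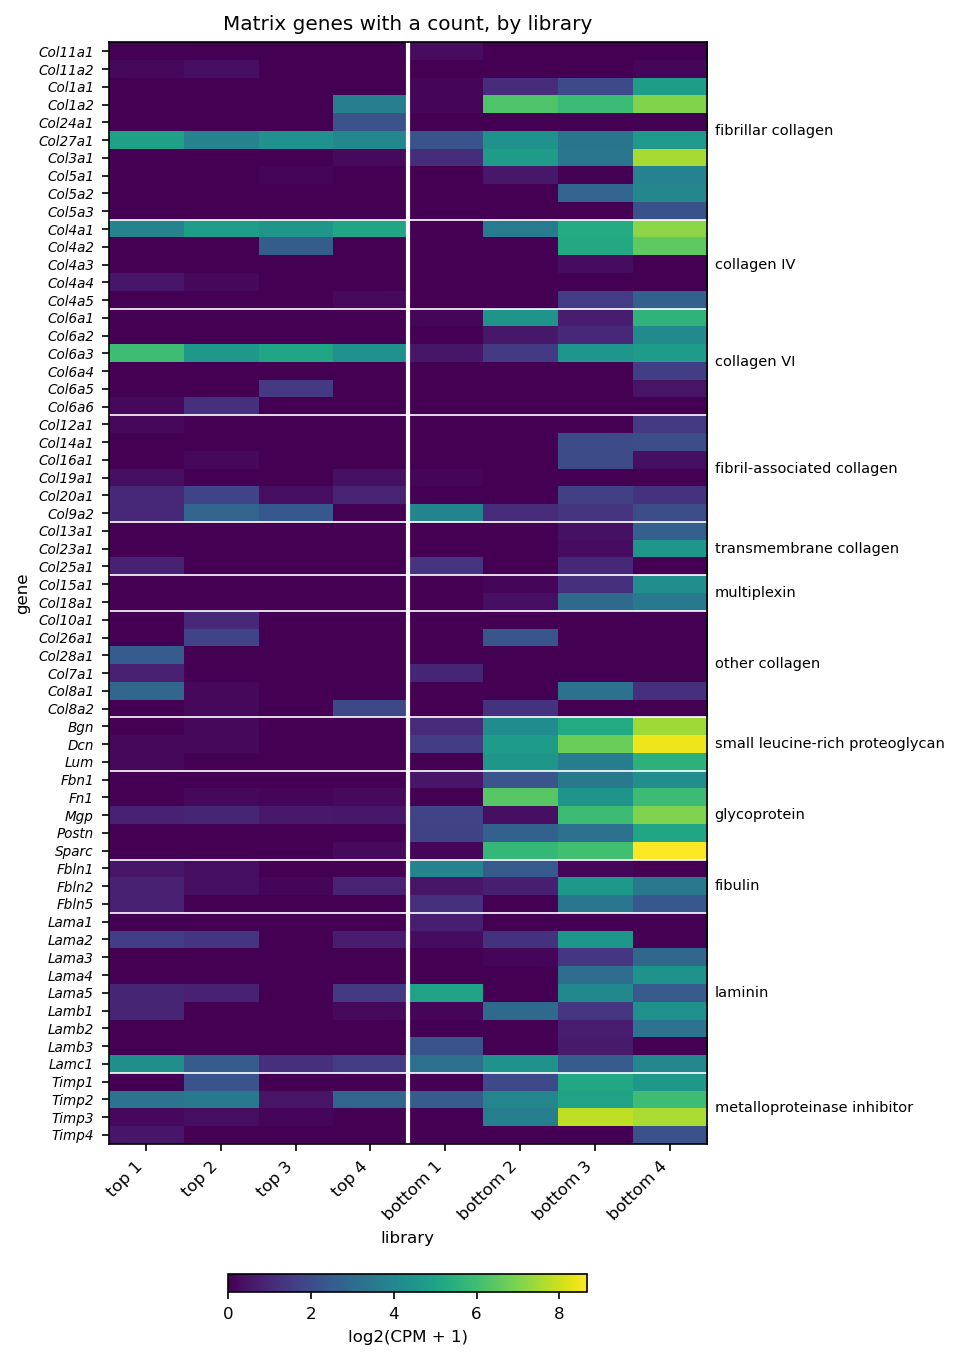
Level of 62 matrix genes with a count, as log2(CPM + 1) by color, genes in rows grouped by 12 classes and libraries in columns. Columns bottom 2, 3 and 4 carry most of the bright cells, bottom 1 is dark for most genes but not for Lama5 and Fbln1, and Col27a1, Col4a1 and Col6a3 are bright in all top libraries while Col4a1 and Col6a3 are dark in bottom 1.

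Genes were ranked against each other per length, as CPM per kb of the longest coding transcript in the GENCODE M21 annotation. The shares of matrix CPM or counts given above for a class or a gene were not scaled by length. In bottom the order of mean levels began with Mgp (77.3 ± 96.9 CPM per kb, SD, n = 4), Dcn (68.1 ± 89.4), Sparc (57.4 ± 81.0), Bgn (23.8 ± 32.3) and Timp3 (22.8 ± 25.1). Each SD was larger than its mean, so neighbours in this order did not differ beyond their spread. In top the order began with Col4a1 (3.72 ± 1.29 CPM per kb), Col6a3 (3.43 ± 1.90) and Col27a1 (2.61 ± 1.00), which also overlapped. The matrix transcripts that led in top were thus other genes than those that led in bottom.

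Chains of the same collagen were not at equal levels. In bottom means, Col1a2 stood 9.39 times above Col1a1 per kb, and in bottom 2, 3 and 4 the ratio was 76.8, 24.3 and 5.22, although the protein holds more Col1a1 than Col1a2 chains. Col4a1 stood 19.4 times above Col4a2 in top means and 1.49 times above it in bottom means. Both had counts in 3 libraries, with a ratio of 4.56 in top 3, 1.05 in bottom 3 and 1.55 in bottom 4, and Col4a2 was at 0 in the other 3 top libraries. In top, Col6a3 was at 1.93 to 6.15 CPM per kb while Col6a1 and Col6a2 had no count, and in bottom 4 the 3 chains were at 2.64, 12.0 and 3.64 CPM per kb. The transcripts were similar in length and base content within pairs, at 5930 bases and 58.9% GC for Col1a1 and 5348 bases and 55.7% GC for Col1a2, and at 6615 bases and 57.7% GC for Col4a1 and 6450 bases and 60.6% GC for Col4a2. Col4a1 and Col4a2 lie head to head, and since the strand of reads was not recorded as far as the labels say, reads of their overlapping ends could not be separated.

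**Figure D4:**
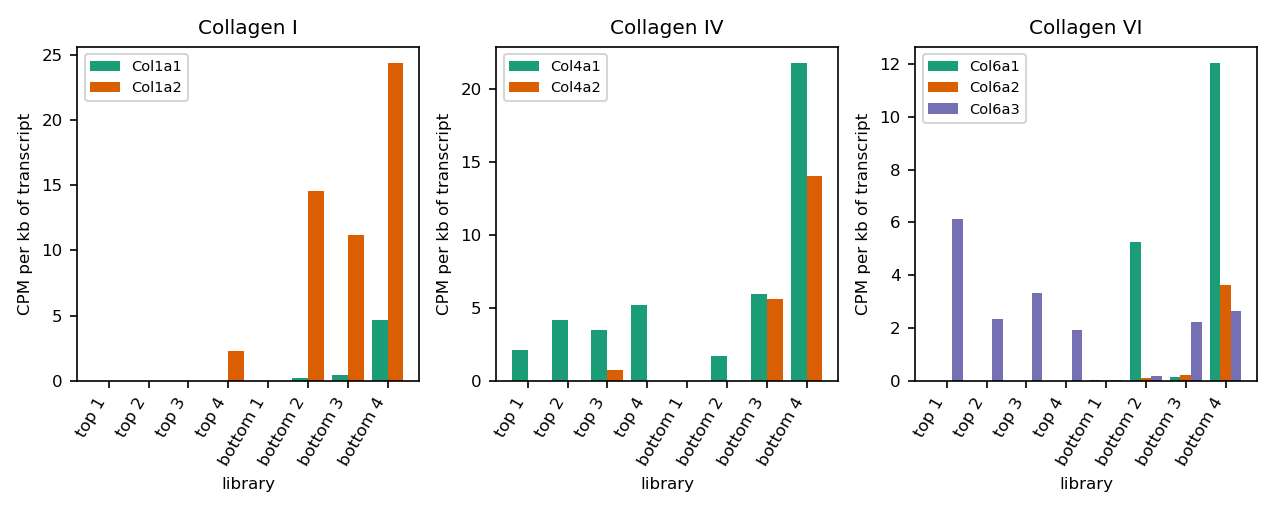
Level of the chains of collagen I, IV and VI in each library, as bars in CPM per kb of transcript on linear axes from 0 that differ between panels. Col1a2 exceeds Col1a1 in bottom 2 to 4, Col4a2 appears beside Col4a1 in top 3 and bottom 3 and 4, and top libraries hold Col6a3 without the other 2 chains.

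In RefSeq's gene order, 10 pairs of matrix genes are direct neighbours. Dcn and Lum are adjacent on chromosome 10, and both were nearly absent from top and highest in bottom 4. Col3a1 and Col5a2 on chromosome 1, Col6a1 and Col6a2 on chromosome 10 and Col4a1 and Col4a2 on chromosome 8 were also each highest in bottom 4. So were 32 of the 63 matrix genes with a count, and a shared highest library is thus common among them. Other neighbours peaked apart. Col4a4 was highest in top 1 and Col4a3 in bottom 3. Col6a6, Col6a5 and Col6a4 were highest in top 2, top 3 and bottom 4. Col9a1 and Col4a6 had no count.

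Genes of the surrounding pathways were counted from lists of collagen synthesis, matrix proteases, matrix receptors, the TGF-beta pathway and other basement membrane and elastic fibre genes. The edgeR test called 0 genes in each list, with 2, 1, 4, 3 and 3 of the 18, 6, 14, 12 and 9 tested at an unadjusted p under 0.05 in this order, against 10.3% of all genes tested. DESeq2 called Pcolce, Adamts1, Cd44, Tgfbi, Efemp2 and Smoc1 higher and Sdc3 and Tgfbr1 lower in bottom, where 3.14% and 1.87% of all genes were so called. Limma-trend called Pcolce, Adamts1 and Cd44 higher, where 0.665% were. For collagen synthesis and cross-linking, 18 of 31 genes were tested, with 11 positive and 7 negative and a median log2 fold change of 0.13, beside 0.0033 over all genes tested. P4hb, a subunit of the prolyl hydroxylase of collagen, had a log2 fold change of 0.07 (standard error 0.28), and Mia3, which carries collagen out of the endoplasmic reticulum, had -0.99 (standard error 0.41, edgeR adjusted p = 0.961 and 0.427). Summed over the list, levels were 1241 to 1598 CPM in top and 1207 to 2145 CPM in bottom. The sum does not describe each gene: 13 were not tested and 5 were at 0 in top. Only Lox, a cross-linking oxidase, was at 0 in all libraries.

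For matrix proteases, 6 of 28 genes were tested (median log2 fold change 1.24). The sheddases Adam10 and Adam17 had log2 fold changes of -0.19 (standard error 0.34) and 1.35 (standard error 1.28). Neither passed the test (edgeR, adjusted p = 0.908 and 0.812), and Mmp8, Mmp9, Mmp13 and Mmp28 were at 0 in all libraries. Mmp7, not tested in the filtered fit, was at 177 CPM in bottom 3 and 11.6 in bottom 4, with 1 count in all of top, and was called without the filter (edgeR, adjusted p = 0.00415).

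For matrix receptors, 14 of 29 genes were tested (median 0.58, 10 positive and 4 negative). Cd44, a receptor for hyaluronan, was at 9.64, 40.9, 82.9 and 78.9 CPM in top and at 153, 124, 394 and 285 CPM in bottom. The populations of Cd44 did not overlap (log2 fold change 2.26, standard error 0.43), and its edgeR adjusted p was 0.0680, or 0.0102 without the filter. Unlike most matrix genes, Cd44 was high in bottom 1 too. Sdc4, a cell surface proteoglycan, had a log2 fold change of 0.28 (standard error 0.69, edgeR adjusted p = 0.940).

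In the TGF-beta pathway, 12 of 22 genes were tested (median 0.80, 8 positive and 4 negative). The regulators Skil and Smad4 had log2 fold changes of -0.35 (standard error 0.63) and -0.37 (standard error 0.48, edgeR adjusted p = 0.913 and 0.883). Ctgf, a target of the pathway, had 1 count in top and 0.109, 11.9, 28.2 and 31.1 CPM in bottom, and was called only without the filter (edgeR, adjusted p = 0.0250). Of the other basement membrane and elastic fibre genes, 9 of 31 were tested (median 0.53), and their sum was 57.0 to 111 CPM in top and 177 to 390 CPM in bottom. Efemp2, of the fibulin family but without an Fbln symbol, was at 6.67 to 37.4 CPM in top and 29.6 to 119 CPM in bottom. Its log2 fold change was 2.22 (standard error 0.50, edgeR adjusted p = 0.111). Thbs1, thrombospondin, was at 1.01 to 7.46 CPM in top and at 0.109, 2.99, 98.2 and 118 CPM in bottom (log2 fold change 2.21, standard error 1.37, edgeR adjusted p = 0.668). Nid1, which joins laminin to collagen IV, had 4 counts in top and 0.109, 19.2, 13.4 and 59.4 CPM in bottom and was called without the filter (edgeR, adjusted p = 0.0339).

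Markers of cell types known to make matrix were also measured, and most had a higher mean in bottom. Of 20 fibroblast and stellate cell markers that are not matrix genes, 16 had a higher mean in bottom. The share over all genes with a count was 56.9%. Of the 20 markers, 10 were at 0 in top and 12 in bottom 1, and Twist1 and Twist2 were at 0 in all libraries. Their sum was 124 to 689 CPM in top and 332 to 900 CPM in bottom, most of it Serping1, which was present in all libraries (121 to 687 and 287 to 828 CPM). The fibroblast sums of the populations overlapped, with top 3 above bottom 1 and bottom 2. Without Serping1, a choice made after its values were seen, the sum was 1.98 to 8.06 CPM in top and 44.7, 94.2, 71.5 and 207 CPM in bottom 1 to 4. Pdgfra, a defining fibroblast marker, was at 25.1 CPM in bottom 2, 24.7 in bottom 4, and at most 0.632 CPM elsewhere.

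All 12 endothelial markers had a higher mean in bottom, where 56.9% of all genes with a count did. Of the 12, 7 were at 0 in top and 3 in bottom 1. Their sum was 0.124 to 9.21 CPM in top and 11.0, 25.1, 59.6 and 352 CPM in bottom. Kdr, the VEGF receptor of endothelium, had no count in top and 0.109, 4.77, 6.53 and 41.8 CPM in bottom. The 10 smooth muscle and pericyte markers summed to 1.73 to 5.72 CPM in top and to 0.655, 18.6, 107 and 264 CPM in bottom, with Cnn1 and Cspg4 at 0 in all libraries. For this list bottom 1 lay below all top libraries. The edgeR test called 0 genes of these 3 lists. Of the 6 tested, 3 had an unadjusted p under 0.05 by edgeR, against 10.3% of all genes tested. DESeq2 and limma-trend called 0 genes of these lists. Without the filter, edgeR called Cxcl12, Dpt, Pdpn, Flt1, Kdr and Plvap higher in bottom, where 0.782% of 17392 genes were called higher. The endothelial and smooth muscle sums were highest in bottom 4, as the matrix sum was. The fibroblast sum was highest in bottom 3 (900 CPM, against 852 in bottom 4), and only without Serping1 in bottom 4. The part of these lists in the matrix results was not tested.

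Ccl19, a chemokine of lymph node stroma, was at 0.476 to 0.866 CPM in top and at 16.8, 1380.0, 188 and 3559.6 CPM in bottom, and was called higher (log2 fold change 10.56, standard error 1.64, edgeR adjusted p = 0.0367). The lymph node stroma list summed to 0.794 to 5.52 CPM in top and to 24.1, 1421, 191 and 3693 CPM in bottom. Bottom 4 was highest and bottom 1 the lowest of the bottom libraries, as for the matrix sum. Bottom 2 lay above bottom 3 in this list, whereas the matrix sum was 464 CPM in bottom 2 and 946 CPM in bottom 3. The 15 intestinal epithelium markers summed to 33411 CPM in bottom 1 and 7592 in bottom 2, but to 44.2 and 21.9 in bottom 3 and 4 and to 64.1 to 2062 CPM in top. Bottom 1, the bottom library with the least matrix RNA, was the one with the most of these. Macrophage markers summed to at most 4.27 CPM in any library, with Csf1r, Cd68, C1qb and C1qc at 0. The part of these lists in the matrix results was not tested.

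**Figure D5:**
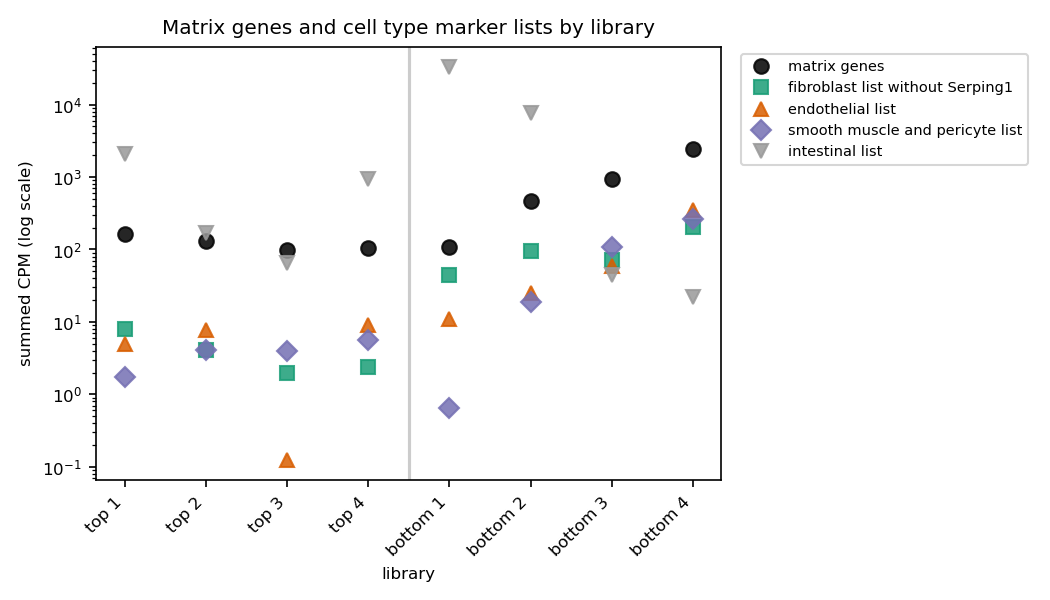
Summed CPM on a log axis, by library, of the 71 matrix genes and of the fibroblast (without Serping1), endothelial, smooth muscle and pericyte, and intestinal marker lists. Matrix genes rank bottom 2, 3 and 4 above all top libraries, as do the endothelial and smooth muscle lists, while the intestinal list peaks at 33411 CPM in bottom 1.

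A further 41 members had at most 197 counts each. Of these, 33 had a count, 23 with a higher mean in bottom and 10 with a higher mean in top. In bottom alone 12 were found, and in top alone 5 (Col4a4, Col6a6, Col10a1, Col24a1 and Col28a1), with no share over all genes computed beside them. None of the 33 was called by edgeR without the filter.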

How the data were processed

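RNA from 8 libraries was analysed, 4 of each sorted population, grouped by the labels. The authors deposited expected counts per gene, estimates of reads made by RSEM, which divides reads that match several genes. The submitters' processing notes list RSEM, edgeR and the build mm9. Aligner, annotation and versions are not given in the sources used here. Deposited expected counts were identical between the series table and the tables of single libraries (largest difference 0). Of the values, 34.8% were not whole (tolerance 0.005), and all were rounded.

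Genes were tested with edgeR 4.0.16 (limma 3.58.1, R 4.3.3): TMM scaling, filterByExpr by population, and the quasi-likelihood test with batch as a covariate. The 11721 genes tested held at least 98.01% of each library's counts, and the common biological coefficient of variation was 0.806. Scripts were tested on simulated data. Positive log2 fold changes are higher in bottom, and SE is the fold change divided by the root of the F statistic. CPM used the TMM library sizes of the tested genes. Against 0 counts in top, folds used a floor of 3 counts over the population, and other ratios carry exact binomial intervals at 95% confidence. Reads had no molecular identifiers, so both cover counting error only.

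Members, classes and lists were chosen with earlier results of these data known. Genes were named if called, among the 15 tested members of highest mean CPM, or the tested member of largest change in a class. The values of 1 tested member are not reported here. For the surrounding pathways, called genes and the 2 of highest mean CPM were named. The 16 untested members with at least 200 counts, the members with fewer counts that are given by value, Mmp7, Ctgf and Nid1, and the single markers named were added after values were seen. Alternatives were RLE scaling, no filter (at least 1 count), DESeq2 1.42.0, limma-trend (prior count 2), no batch term, single batches, a block by title number, and leaving out each library. The interaction's alternatives were added after the data were seen.

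Lengths, exon overlaps, neighbours and promoters came from GENCODE M21 and RefSeq (GRCm38), another build than that of the files, matched by symbol. All 71 members matched a transcript and 52 a promoter entry. The strand of reads is not given in the labels.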

Additional observations from a re-analysis of the deposited data

Results flagged for a closer look

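In 10 cases among the matrix genes given by library, the highest library of a population lay far from the other 3, with a gap above Dixon's 95% critical value for 4 samples. Both populations of each gene were examined, 58 groups of libraries. The critical value assumes normally distributed levels, and these were skewed with many near 0, so it gives no rate of chance cases here. Where the other 3 libraries were at 0, the share is 1 at any level. The top groups of Bgn, Col3a1, Sparc and Lum, with 1 count each, are not listed. In bottom 4 there were 5: Sparc (408 CPM, next 65.9), Col3a1 (187, next 25.9), Col1a1 (27.7, next 2.74), Col23a1 (22.7, next 0.211) and Col15a1 (18.3, next 1.26). Bottom 3 stood apart for Lama2 (23.3 CPM, next 1.40), and bottom 1 for Col9a2 (14.1 CPM, next 3.15). Among the top libraries, top 2 stood apart for Timp1 (3.64 CPM, others 0), top 3 for Col4a2 (4.95 CPM, others 0) and top 4 for Col1a2 (12.2 CPM, others 0).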

How the results depend on the processing

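The 2 matrix genes called higher in bottom became 9 with no filter on low counts, 1 with no batch term, 0 in batch 1 alone, 1 in batch 2 alone (Timp3), 0 with the replicate block, and 0 to 7 with 1 library left out. RLE scaling and limma-trend gave 2 and DESeq2 gave 3. No setting called a member lower. Over all genes, 52 were called, against 204 without the filter, 587 by DESeq2, 137 by limma-trend, 48 with RLE scaling, 32 without the batch term, 2 in batch 1 alone, 2 in batch 2 alone, 0 with the replicate block and 8 to 60 with 1 library left out. DESeq2 called the batch interaction of 1 member, and the other settings of 0. The summed difference was 867 CPM with RLE scaling and 367 to 1145 CPM with 1 library left out.

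The replicate block, made of the batch and the number in the title, compares populations only between libraries that share a number, with adjusted p = 0.448 for Dcn and 0.516 for Col3a1 (edgeR). Deviations of same-numbered libraries correlated at 0.217 in batch 1 and 0.124 in batch 2. Other pairs of a top and a bottom library within a batch ranged from -0.031 to 0.112. The same-numbered pair was thus the highest in each batch. With only 2 such pairs, the shared numbers do not establish pairing.

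Some tested members turned sign, all far from the threshold. Col4a1 (-0.08 in log2) ranged from -0.87 to 0.79 with 1 library left out, at 0.38 for top 2, 0.12 for bottom 2, 0.012 for bottom 3 and the upper end for bottom 1. It was 0.98 without the batch term and 1.69 in batch 2 alone. Col9a2 ranged from -0.53 (without bottom 1) to 2.19, and Lama2 from -1.78 (without bottom 3) to 3.55, with -1.12 in batch 1 alone. In batch 1 alone Timp1 was -0.39 and Timp2 -0.030. Over 13 of the tested genes and the alternatives, 170 values kept direction and call, 21 lost the call, 3 gained it and 11 turned sign. All 21 losses fell on Dcn, called in 6 of 16 alternatives, and Col3a1, called in 5 of 16. The other genes had no call in the main test and thus none to lose. The cause of these changes was not tested. Depth limits the members with few counts: 1 count in top leaves a ratio uncertain by orders of magnitude.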
